A study of Mus musculus with 16 samples.

Results

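The effect of reduced Ikaros was compared between 2 stages of dendritic cell (DC) progenitors, to see which genes respond to the Ikaros hypomorphic mutation differently at the CDP stage and at the MDP stage. For each gene, the IkL/L minus WT difference in CDPs was set against the same difference in MDPs, each averaged over GSI and DMSO cultures. All 16 arrays of the series entered this comparison, and 19938 genes were tested. With the 16 arrays taken as independent, 112 genes differed by stage at an adjusted p under 0.05 (limma). In CDPs the IkL/L minus WT difference was higher than in MDPs for 80 genes and lower for 32. With same-numbered GSI and DMSO arrays as a random unit, 61 and 13 genes passed. When these arrays were averaged, as if each pair came from 1 mouse, 0 passed on either side. Of the 112, 36 belonged to 3 sets described below, and 67 were in none of the gene lists. Many genes of mature, migratory DCs rose in IkL/L CDPs, by a median of 1.39 over the list on the log2 scale, and less in MDPs, by a median of 0.23. Many genes of mitosis fell in IkL/L CDPs, with no call in MDPs. For 4 genes of MHC class II presentation, H2-Aa, H2-Ab1, Cd74 and H2-Eb1, the IkL/L minus WT difference was smaller in CDPs than in MDPs, where it reached 3.52 to 4.13 on the log2 scale.

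Ikaros, encoded by Ikzf1, is a zinc finger DNA-binding protein that both represses and activates genes in blood progenitors and lymphocytes. Monocyte and dendritic progenitors (MDPs) give rise to monocytes and to common dendritic progenitors (CDPs), and CDPs give rise to plasmacytoid and conventional DCs. When a conventional DC matures, it bundles actin into long dendrites, switches on the chemokine receptor that leads it to lymph nodes, and moves peptide-loaded MHC class II molecules to its surface. NF-kB factors drive much of this program, and the maturing cell leaves the cell cycle.

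The 16 arrays made 8 groups of 2: IkL/L CDPs with GSI or with DMSO, WT CDPs with GSI or with DMSO, IkL/L MDPs with GSI or with DMSO, and WT MDPs with GSI or with DMSO. IkL/L mice are homozygous for a hypomorphic Ikzf1 allele in all cells, and the mice were 6 to 9 weeks old. Sorted CD45.2+ progenitors were cultured for 24 h among CD45.1+ WT bone marrow cells with Flt3L, the growth factor of DC progenitors, and with the γ-secretase inhibitor (GSI) Compound E at 5 µM or with the vehicle DMSO. The CD45.2+ cells were then sorted back, and 0.69 to 20 ng of their RNA was amplified for each array. The stage names the progenitor that entered culture, and how far the cells had moved on after 24 h was not part of these data. The 2 arrays of a group came from different mice, numbered 1 and 2, and the sources do not say whether a number marks the same mouse in different groups. Levels are log2 RMA signals as deposited, so a difference of 1 is a doubling, and they ran on each array from about the background up to at most 13.46. A gene is said to be called when its adjusted p is under 0.05.

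Marker genes were checked against the labels first. Ikzf1 itself read 8.58 and 8.59 with GSI and 8.62 and 8.94 with DMSO in IkL/L CDPs, against 8.90 and 9.15 with GSI and 8.91 and 8.95 with DMSO in WT CDPs. In IkL/L MDPs it read 8.52 and 8.36 with GSI and 8.55 and 8.85 with DMSO, against 9.20 and 9.03 with GSI and 8.97 and 9.09 with DMSO in WT MDPs. The Ikzf1 signal was thus lower in IkL/L cells at both stages, by -0.30 in CDPs and by -0.50 in MDPs, and neither difference was called (adjusted p = 0.133 and 0.0545). Its stage difference was 0.21 (95% confidence interval -0.09 to 0.51). Primary granule genes separated the stages: Mpo, the myeloperoxidase of early granulocyte and monocyte progenitors, lay between 11.37 and 12.31 in all 8 MDP arrays and between 6.56 and 8.17 in 7 of the 8 CDP arrays. The exception was WT CDP DMSO replicate 2, at 11.67 for Mpo and 9.60 for Elane, which encodes neutrophil elastase, against 5.20 to 6.38 for Elane in the other 7 CDP arrays. The counts for the stage difference and for the genotype effect in CDPs are given with and without this library. Csf1r, the receptor that marks both progenitors, read 9.62 to 10.88 on every array. Kit, which MDPs carry at higher density than CDPs, ranged from 6.69 to 7.61 in IkL/L CDPs and from 4.85 to 6.64 in WT CDPs, and in MDPs from 5.94 to 7.99 in IkL/L cells and from 6.40 to 8.05 in WT cells. The Kit ranges of the stages thus overlapped after culture, and IkL/L CDPs lay above WT CDPs and within the IkL/L MDP range. The stage difference of Kit was 1.42 without a call (adjusted p = 0.806). Flt3 ran from 8.57 to 9.60 in IkL/L CDPs and from 7.71 to 9.13 in WT CDPs. In MDPs Flt3 ran from 6.59 to 7.76 in IkL/L cells and from 6.36 to 6.57 in WT cells. Cd34 and Cx3cr1 overlapped between the stages in both genotypes. Genes of B cells, T and NK cells and red cells stayed near the background in every population, with list medians of 3.89 to 4.90 per array.

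**Figure D1:**
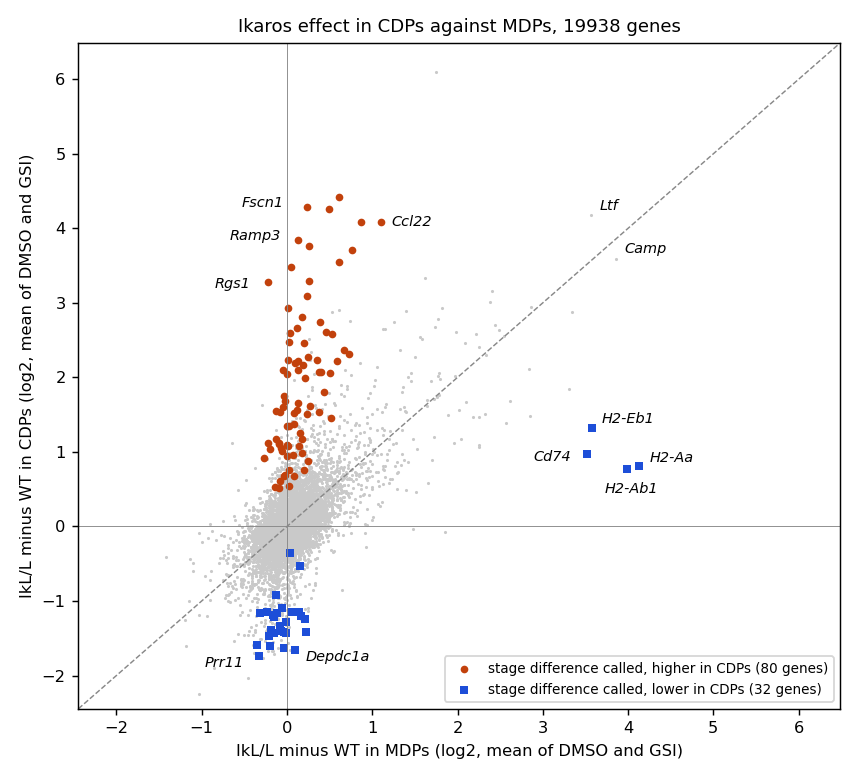
Each point is 1 of 19938 genes, placed by its IkL/L minus WT difference in MDPs (x axis, log2) and in CDPs (y axis, log2), both averaged over GSI and DMSO cultures, and the dashed line marks equal effects. The 80 genes called higher in CDPs stand high on the CDP axis and mostly near 0 on the MDP axis, 28 of the 32 called lower lie below 0 on the CDP axis, and the 4 MHC class II genes lie far to the right, while Ltf and Camp of the neutrophil granules lie near the line.

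The stage difference was called for 80 genes on the high side (0.401% of genes tested) and for 32 on the low side (0.160%), and at an unadjusted p under 0.05 for 670 (3.36%) and 612 (3.07%). The parts of this difference were unequal. In CDPs, 641 genes were called higher in IkL/L than in WT cells (3.21%) and 382 lower (1.92%). In MDPs, 107 were called higher (0.537%) and 12 lower (0.0602%). Of the 80 genes on the high side, 78 were called in CDPs and not in MDPs, and the other 2, Stap2 and Tbc1d4, rose at both stages. Their median IkL/L minus WT difference was 1.72 in CDPs and 0.12 in MDPs. Of the 32 genes on the low side, 28 were called lower in CDPs and not in MDPs, 3 were called higher in MDPs only, and H2-Eb1 was called higher at both stages. No gene was called in opposite directions at the 2 stages. Without WT CDP DMSO replicate 2 the stage difference was called for 74 genes on the high side, 68 of them among the 80, and for 19 on the low side, 18 of them among the 32. Leaving out each of the 16 arrays in turn gave 10 to 68 genes on the low side, 10 to 28 of them among the 32. Without WT CDP DMSO replicate 2 397 genes were called higher and 220 lower in CDPs. When the GSI and DMSO arrays of the same number were averaged first, as if each pair came from 1 mouse, limma called 0 genes on either side, with 471 and 380 at an unadjusted p under 0.05 and 4 residual degrees of freedom. With those arrays as a random unit it called 61 and 13, all of them among the 80 and the 32.

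The same contrast can be read within each genotype. CDPs differed from MDPs in 772 genes called higher (3.87%) and 573 lower (2.87%) among IkL/L cells, but in 135 higher (0.677%) and 31 lower (0.155%) among WT cells. The WT counts include WT CDP DMSO replicate 2, whose Mpo lay in the range of the MDPs. They were not computed without it, so its part in the gap between the genotypes is unknown. For the 80 genes the median CDP minus MDP difference was 1.75 in IkL/L cells and 0.12 in WT cells, and for the 32 genes it was -1.13 in IkL/L cells and 0.06 in WT cells. The calls came from these same arrays, so the order of the arrays only describes the genes called. In 79 of the 80 all 4 IkL/L CDP arrays lay above the other 12 (2.65% of all genes), and in 27 of the 32 all 4 lay below the other 12 (2.08% of all genes). The other 5 of the 32 were Ankle1 and the MHC class II genes. The gene on the high side without that separation was Anxa3, whose stage difference of 1.70 came with a CDP minus MDP difference of -1.40 in WT cells (adjusted p = 0.00916) and 0.30 in IkL/L cells (adjusted p = 0.508).

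Sequence at the start sites is shown for a few members because the genes on the low side often held letters known from promoters of mitotic genes. The promoters are those of RefSeq on GRCm38.p6, 250 bases before to 50 after a gene's start, and they were held for 58 of the 80 genes on the high side, 26 of the 32 on the low side and 15614 of all genes tested. Motifs were searched on both strands, and a gene counts once if any of its promoters holds the letters. CCAAT, the box read by NF-Y, was present for 18 of the 26 genes on the low side (69.2%), for 19 of 58 on the high side (32.8%) and for 41.7% of all genes. TTTGAA, the core of the cell cycle homology region (CHR) that the MuvB complex reads in mitotic genes, was present for 15 of the 26 (57.7%), for 9 of the 58 (15.5%) and for 17.3% of all genes. The NF-kB form, GGG and then TTCC after 3 bases of any kind, was present for 2 of the 26 (7.69%), for 8 of the 58 (13.8%) and for 6.44% of all genes. TGGGAA, the core that Ikaros binds, was present for 4 of the 26 (15.4%), for 17 of the 58 (29.3%) and for 27.1% of all genes. Read backwards it can overlap the NF-kB form in the letters TTCC, and no other pair of these motifs was looked at for overlap. Over all promoters of this length, 37.4% held CCAAT, 14.8% TTTGAA, 5.58% the NF-kB form and 24.0% TGGGAA. These shares describe letters and were not tested.

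In the promoters of Ccnb2 (chr9:70421505-70421804, minus strand) and Cenpa (chr5:30666636-30666935, plus strand), which stand for the mitotic genes below, capitals mark CCAAT and TTTGAA in either orientation, with 5 matches in Ccnb2 and 3 in Cenpa.
Ccnb2: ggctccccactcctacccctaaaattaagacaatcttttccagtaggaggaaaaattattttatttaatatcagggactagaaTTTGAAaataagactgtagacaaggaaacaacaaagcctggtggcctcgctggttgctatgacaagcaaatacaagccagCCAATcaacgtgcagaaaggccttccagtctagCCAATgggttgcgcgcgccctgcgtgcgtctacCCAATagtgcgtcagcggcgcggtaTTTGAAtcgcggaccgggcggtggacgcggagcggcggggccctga
Cenpa: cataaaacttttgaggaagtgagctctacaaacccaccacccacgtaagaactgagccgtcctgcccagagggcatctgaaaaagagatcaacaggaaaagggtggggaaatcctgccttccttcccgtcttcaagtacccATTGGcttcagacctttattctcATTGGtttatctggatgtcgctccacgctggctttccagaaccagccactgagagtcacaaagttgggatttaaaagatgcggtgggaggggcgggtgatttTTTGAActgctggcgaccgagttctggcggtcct
In the promoter of H2-Aa (chr17:34287774-34288073, minus strand), which stands for the MHC class II genes, capitals mark the single CCAAT match, read backwards. In that of Il2ra (chr2:11642542-11642841, plus strand), a gene on the high side, capitals mark the single match to the NF-kB form, also read backwards.
H2-Aa: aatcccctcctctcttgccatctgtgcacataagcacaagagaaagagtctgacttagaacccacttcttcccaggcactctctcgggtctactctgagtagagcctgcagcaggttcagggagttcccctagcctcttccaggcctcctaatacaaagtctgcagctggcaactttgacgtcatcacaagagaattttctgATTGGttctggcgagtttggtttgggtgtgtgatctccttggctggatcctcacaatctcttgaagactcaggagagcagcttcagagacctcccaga
Il2ra: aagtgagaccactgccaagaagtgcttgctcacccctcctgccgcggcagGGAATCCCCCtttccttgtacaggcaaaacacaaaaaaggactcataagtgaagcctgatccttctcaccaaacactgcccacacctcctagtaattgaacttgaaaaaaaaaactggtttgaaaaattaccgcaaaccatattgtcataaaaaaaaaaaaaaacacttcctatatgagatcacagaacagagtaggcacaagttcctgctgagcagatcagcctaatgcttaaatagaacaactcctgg

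Genes of mature and migratory DCs made up the most strongly changed set. Of 33 measured genes of this list, 17 were called on the high side and none on the low side, against 0.401% of all genes on the high side. With a positive sign, 29 of the 33 passed an unadjusted p under 0.05 (3.36% of all genes). The median stage difference of the 33 was 1.27, against -0.01 over all genes. In CDPs 30 of the 33 were called higher in IkL/L than in WT cells (3.21% of all genes), and in MDPs 1 was (0.537% of all genes). At an unadjusted p under 0.05, 10 of the 33 were higher in IkL/L MDPs and 0 lower, against 999 and 755 of all 19938 genes. The median IkL/L minus WT difference of the 33 was 1.39 in CDPs and 0.23 in MDPs. The median signal of the 33 genes was 7.56 to 7.91 on the IkL/L CDP arrays, 5.51 to 5.98 on the WT CDP arrays, 5.21 to 6.17 on the IkL/L MDP arrays and 5.00 to 5.32 on the WT MDP arrays. The number called was 13 to 18 when any 1 array was left out, 16 without WT CDP DMSO replicate 2, and 14 with same-numbered arrays as a random unit. In these bulk samples more cells of a mature type and more RNA per cell cannot be told apart.

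Genes of movement and shape were among those called. Fscn1, which encodes fascin, the actin bundler of DC dendrites, read 9.27 and 9.88 with GSI and 9.11 and 9.56 with DMSO in IkL/L CDPs, against 4.76 and 5.80 with GSI and 4.94 and 5.19 with DMSO in WT CDPs. In IkL/L MDPs Fscn1 read 4.81 and 4.90 with GSI and 4.63 and 5.12 with DMSO, against 4.61 and 4.82 with GSI and 4.49 and 4.62 with DMSO in WT MDPs. The lowest IkL/L CDP array was thus more than 3 log2 units above the highest of the other 12. The IkL/L minus WT difference of Fscn1 was 4.28 in CDPs and 0.23 in MDPs, which differ by 4.05 ± 0.32 (SE, adjusted p = 0.000396). Averaging same-numbered arrays left this difference as it was, with an adjusted p of 0.0579. Ccr7, the receptor through which DCs home to lymph nodes, read 10.40 and 11.24 with GSI and 10.23 and 10.93 with DMSO in IkL/L CDPs, against 5.53 and 7.39 with GSI and 6.08 and 6.76 with DMSO in WT CDPs. In MDPs Ccr7 lay between 5.48 and 6.23 in IkL/L cells and between 5.14 and 5.43 in WT cells. WT CDPs therefore carried slightly more Ccr7 than WT MDPs, without a call (1.15, adjusted p = 0.280), and the stage difference was 3.77 ± 0.54 (SE, adjusted p = 0.0113). Ramp3 and Mmp25 were outside the list and are given here for the size of their differences. Ramp3, a partner protein of calcitonin family receptors, read 8.48 and 8.74 with GSI and 7.35 and 7.52 with DMSO in IkL/L CDPs, against 3.84 to 4.88 on the other 12 arrays, with a stage difference of 3.72 ± 0.25 (SE, adjusted p = 0.000227). Mmp25, a membrane-anchored matrix metalloprotease, read 7.72 to 8.60 in IkL/L CDPs against 4.13 to 4.77 on the other 12 arrays, and its difference was 3.50 ± 0.22 (SE, adjusted p = 0.000227).

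**Figure D2:**
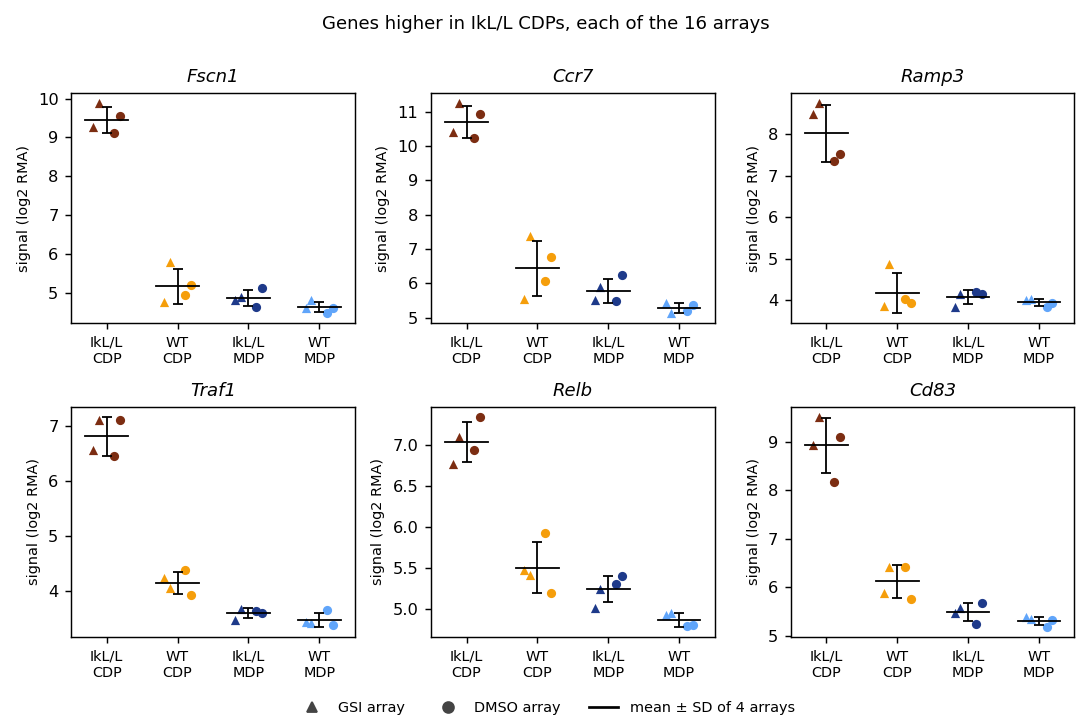
Signal (log2 RMA) of Fscn1, Ccr7, Ramp3, Traf1, Relb and Cd83 on each of the 16 arrays, with IkL/L and WT CDPs and MDPs along the x axis, triangles for GSI arrays, circles for DMSO arrays, and bars for the mean ± SD of the 4 arrays. In all 6 genes the 4 IkL/L CDP arrays lie above the other 12, on y axes that differ between panels, for example at 9.11 to 9.88 against 4.49 to 5.80 for Fscn1.

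Chemokines and surface receptors of mature DCs followed. Ccl22, a ligand of the chemokine receptor CCR4 on T cells, read 9.74 and 10.22 with GSI and 9.76 and 10.50 with DMSO in IkL/L CDPs, against 5.26 and 5.82 with GSI and 6.62 and 6.19 with DMSO in WT CDPs. In IkL/L MDPs Ccl22 read 4.70 and 5.12 with GSI and 6.07 and 6.52 with DMSO, against 4.91 and 4.53 with GSI and 4.20 and 4.35 with DMSO in WT MDPs. The IkL/L MDPs in DMSO thus stood above those in GSI, and the IkL/L minus WT difference in MDPs was 1.10 without a call (adjusted p = 0.0552). Ccl5, which attracts T cells, was at 11.32 to 11.83 in IkL/L CDPs and at 6.23 to 8.77 on the other 12 arrays (stage difference 2.94 ± 0.38, SE, adjusted p = 0.00657). Cd83, a surface marker of DC maturation that stabilizes MHC class II, was at 8.16 to 9.51 against 5.19 to 6.42 (2.62 ± 0.33, adjusted p = 0.0049). Also called were Ly75, which takes up antigen, at 1.71, Il15ra at 1.32, Tnfrsf9 (4-1BB) at 1.71 and Tnfrsf4 (OX40) at 1.30. Among ligands for lymphocyte receptors, Cd200 and Pvr were called, at 2.35 and 1.22. Cd86, a costimulatory ligand, was not, with a stage difference of 0.05 (95% confidence interval -0.90 to 1.01) and values of 7.59 to 8.10 in IkL/L CDPs, 6.33 to 7.78 in WT CDPs, 6.25 to 7.15 in IkL/L MDPs and 5.46 to 6.08 in WT MDPs. Of the costimulatory and checkpoint ligands, 2 of 16 were called (0.401% of all genes) and 8 passed an unadjusted p under 0.05 (3.36% of all genes), all on the high side.

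Protease inhibitors and regulators of signaling also stood high in IkL/L CDPs. Serpinb6b read 8.67 and 9.24 with GSI and 8.26 and 8.91 with DMSO there, against 3.95 to 5.17 on the other 12 arrays, a stage difference of 3.81 ± 0.34 (SE, adjusted p = 0.000766). Serpinb9, which inhibits granzyme B, read 6.49 to 8.15 against 3.89 to 4.58 (2.87 ± 0.27, adjusted p = 0.00092). Rgs1, which shortens signals of chemokine receptors, read 7.65 to 8.52 against 4.21 to 5.63, and 2 of the 4 WT MDP arrays, at 5.63 and 5.23, were the highest of the 12. Socs2, a suppressor of cytokine signaling, read 6.05 to 7.91 against 3.62 to 4.09, but its other probe set, of lower signal, gave 0.59 without a call (adjusted p = 0.589). Further genes with large differences were H2-M2, a non-classical MHC class I gene (3.43), Timd4, a receptor for phosphatidylserine (3.22), Mreg (3.03) and Clu, a secreted chaperone (2.95). The largest stage difference of the list belonged to a gene that was not called. Apol7c, an apolipoprotein L gene picked after its values were seen, read 10.46 to 11.22 in IkL/L CDPs and 3.66 to 6.27 in WT CDPs, and in IkL/L MDPs 5.08 and 5.01 with GSI and 3.89 and 7.22 with DMSO, against 3.41 to 3.66 in WT MDPs. Its stage difference was 4.35 ± 0.96 (SE, adjusted p = 0.116).

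Components of the non-canonical NF-kB pathway were among the called genes. Relb, the NF-kB subunit of that pathway, read 6.77 and 7.10 with GSI and 6.95 and 7.34 with DMSO in IkL/L CDPs, against 5.47 and 5.41 with GSI and 5.93 and 5.19 with DMSO in WT CDPs. In MDPs Relb lay between 5.01 and 5.39 in IkL/L cells and between 4.79 and 4.95 in WT cells. Its stage difference was 1.17 ± 0.21 (SE, adjusted p = 0.0459), and it stayed called when 3 of the 16 arrays were left out in turn and lost the call with the other 13. Traf1, an adaptor of TNF receptors, read 6.56 and 7.10 with GSI and 6.45 and 7.11 with DMSO in IkL/L CDPs, against 3.38 to 4.37 on the other 12 arrays, with a difference of 2.54 ± 0.24 (SE, adjusted p = 0.00092). Map3k14, the NIK kinase that starts the pathway, gave 0.94 ± 0.17 (adjusted p = 0.0479), and Birc2, a ubiquitin ligase acting on NIK, 1.34 ± 0.19 (adjusted p = 0.0125), with 0.72 and no call at its other probe set (adjusted p = 0.241). Other members were not called: Nfkb2 gave 0.59 (adjusted p = 0.744), Rel 0.72 (0.391), Rela 0.20 and Nfkbia, the feedback inhibitor, 0.14. Map3k14 kept its call in 4 of the 16 cases with 1 array left out, and with same-numbered arrays as a random unit neither Map3k14 (adjusted p = 0.0787) nor Relb (adjusted p = 0.0978) was called. In all, 4 of 21 NF-kB genes were called, each on the high side (0.401% of all genes), and 8 passed an unadjusted p under 0.05 (3.36% of all genes).

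Of the 80 genes, 54 were in none of the lists. They included Pfkfb3 (2.22) and Eno3 (2.10) of glycolysis, Ptgs2 (1.10), the inducible cyclooxygenase, Nr4a3 (2.56), a nuclear receptor of early responses, Cblb (1.34), a ubiquitin ligase that restrains receptor signaling, Abcg1 (0.69), which exports cholesterol, and Itgb8 (1.65), an integrin subunit that activates latent TGFβ. Itgb8 read 5.10 and 5.40 with GSI and 5.72 and 6.08 with DMSO in IkL/L CDPs and between 3.71 and 3.99 on the other 12 arrays. These genes were picked from the 54 for their known roles after their values were seen. In 20 of the 80 the highest group mean was under 6 on the log2 scale. Il2ra, the interleukin 2 receptor α chain and a known Notch target, was 1 of these, at 4.36 to 5.20 in IkL/L CDPs against 3.38 to 3.79 on the other arrays (1.21 ± 0.21, adjusted p = 0.0305). Its call was kept in 5 of the 16 cases with 1 array left out.

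Genes of mitosis formed the second set. Of 39 measured genes for mitosis and the spindle checkpoint, 15 were called on the low side and 0 on the high side, against 0.160% of all genes on the low side. With a negative sign, 34 passed an unadjusted p under 0.05 (3.07% of all genes). The median stage difference of the 39 was -1.20, and 38 of the 39 were negative. In CDPs 31 of the 39 were called lower in IkL/L than in WT cells (1.92% of all genes). In MDPs 0 were in limma's test (0.0602% of all genes), with 1 lower at an unadjusted p under 0.05, against 755 of all 19938 genes. The median signal of the 39 genes was 6.84 to 7.22 on the IkL/L CDP arrays and 8.08 to 8.50 on the WT CDP arrays, and in MDPs it was 7.75 to 8.31 in IkL/L cells and 7.98 to 8.50 in WT cells. The number called depended on single arrays: it was 9 without WT CDP DMSO replicate 2, 7 without WT MDP DMSO replicate 1, 5 without IkL/L MDP GSI replicate 1, 17 at most, and 6 with same-numbered arrays as a random unit.

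Checkpoint and kinetochore genes showed this most plainly. Bub1, a kinase of the spindle checkpoint, read 6.49 and 6.83 with GSI and 6.81 and 7.01 with DMSO in IkL/L CDPs, against 8.64 and 8.62 with GSI and 7.83 and 8.55 with DMSO in WT CDPs. In IkL/L MDPs Bub1 read 8.22 and 8.13 with GSI and 7.93 and 8.38 with DMSO, against 8.01 and 8.39 with GSI and 8.10 and 8.28 with DMSO in WT MDPs. IkL/L CDPs stood alone on the low side, and the other 3 populations overlapped. The IkL/L minus WT difference of Bub1 was -1.63 in CDPs and -0.03 in MDPs, a stage difference of -1.59 ± 0.23 (SE, adjusted p = 0.0125). Cenpa, the histone H3 variant of centromeres, read 7.45 and 7.83 with GSI and 7.90 and 7.79 with DMSO in IkL/L CDPs, against 9.30 and 9.15 with GSI and 8.85 and 9.40 with DMSO in WT CDPs. In MDPs it lay between 9.22 and 9.62 in IkL/L cells and between 9.26 and 9.67 in WT cells, and the stage difference was -1.42 ± 0.20 (SE, adjusted p = 0.00936). Mad2l1 and Bub1b of the checkpoint gave -1.04 each, Nuf2 of the outer kinetochore -1.32, and Cenpp -1.37.

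Regulators of entry into mitosis and exit from it were called on the low side as well. Cdc25c, the phosphatase that activates CDK1, read 4.48 and 4.78 with GSI and 4.50 and 4.88 with DMSO in IkL/L CDPs, against 6.27 and 6.18 with GSI and 5.67 and 6.18 with DMSO in WT CDPs. In MDPs Cdc25c lay between 5.82 and 6.24 in IkL/L cells and between 5.53 and 6.19 in WT cells. The stage difference was -1.64 ± 0.25 (SE, adjusted p = 0.0158). Ccnb2, cyclin B2, read 8.32 and 8.50 with GSI and 8.24 and 8.33 with DMSO in IkL/L CDPs, against 9.50 to 9.96 in WT CDPs, 9.54 to 10.18 in IkL/L MDPs and 9.88 to 10.44 in WT MDPs (-1.21 ± 0.19, adjusted p = 0.0158). Both Ccnb2 and Cenpa are printed above with their CCAAT and TTTGAA letters. Ccna2, cyclin A2, gave -1.27, and Cdc20 and Ube2c, which act with the anaphase-promoting complex, gave -1.27 and -1.20. Ect2 and Racgap1 of cytokinesis gave -1.45 and -1.02, and the kinesins Kif20a and Kif18a gave -1.06 and -1.24. Depdc1a (-1.76) was called at both of its probe sets. With 1 array left out, Cdc20 and Ube2c kept their calls in 2 of the 16 cases, and Racgap1 in 3. Ect2, Kif20a and Depdc1a kept theirs in 4, and none of these was called with same-numbered arrays as a random unit. Ccna2 kept its call in 15 cases and Kif18a in all 16, and both were called with that random unit. Lin9, a core subunit of the MuvB complex that reads the CHR element, was itself called, at -0.79 ± 0.11 (adjusted p = 0.00953), with 6.02 to 6.42 in IkL/L CDPs against 6.66 to 7.25 on the other 12 arrays.

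**Figure D3:**
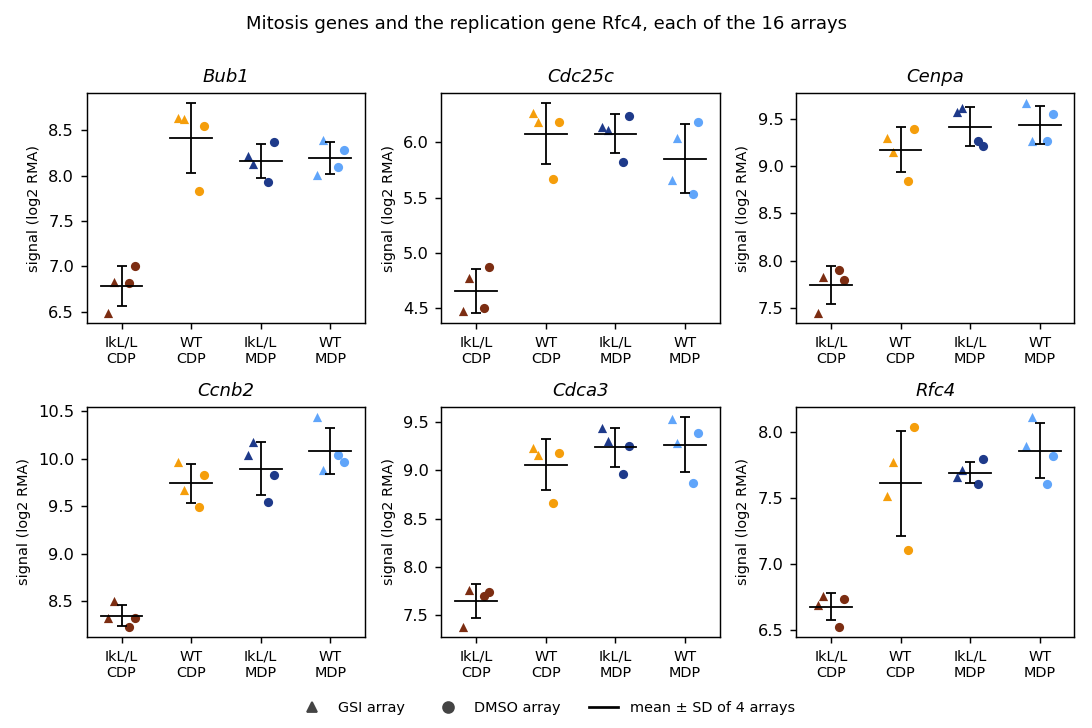
Signal (log2 RMA) of 5 mitosis genes, Bub1, Cdc25c, Cenpa, Ccnb2 and Cdca3, and of the replication factor gene Rfc4 on each of the 16 arrays, drawn as in the plot of Fscn1 and the other mature DC genes (triangles GSI, circles DMSO, mean ± SD of 4 arrays). The 4 IkL/L CDP arrays lie below the other 12 in each panel, while Rfc4, at 6.52 to 6.75 against 7.11 to 8.12, was called in CDPs but not for the stage difference.

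Prc1, a bundler of spindle microtubules, gave -1.69 ± 0.49 (SE, adjusted p = 0.308) and Kif11, a spindle motor, -1.52 ± 0.34 (adjusted p = 0.126), both picked after their values were seen. Mki67, which encodes the Ki-67 antigen of cycling cells, gave -0.27 ± 0.69 (adjusted p = 0.999). Of the genes of DNA replication and the G1/S transition, 0 of 39 were called in limma's test (0.160% of all genes on the low side). The stage difference was negative in 37 of the 39, against 10390 of all 19938 genes, with a median of -0.43. Of the 39, 9 passed an unadjusted p under 0.05, all negative (3.07% of all genes). In CDPs 8 of these 39 were called lower in IkL/L cells (1.92% of all genes). Rfc4, a subunit of the clamp loader, gave -0.77 ± 0.24 (adjusted p = 0.385), and E2f2 -0.87 ± 0.25 (adjusted p = 0.327). Dbf4, the activating subunit of the kinase that fires replication origins, was called at -0.85 ± 0.15 (adjusted p = 0.0311) and was in none of the lists. It kept its call in 5 of the 16 cases with 1 array left out and lost it with same-numbered arrays as a random unit. Whether the mitosis and replication lists differ was not tested.

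The third set was 4 of the 10 measured genes of MHC class II presentation, with the smaller genotype effect in CDPs and the larger in MDPs. Over all 10 genes the median stage difference was 0.09. H2-Aa, an α chain of MHC class II, read 12.36 and 12.42 with GSI and 12.43 and 12.54 with DMSO in IkL/L CDPs, against 11.26 and 12.08 with GSI and 11.54 and 11.63 with DMSO in WT CDPs. In IkL/L MDPs H2-Aa read 10.54 and 10.99 with GSI and 10.45 and 11.14 with DMSO, against 5.53 and 7.26 with GSI and 6.83 and 6.99 with DMSO in WT MDPs. The 4 populations did not overlap and stood in the order IkL/L CDPs, WT CDPs, IkL/L MDPs and, far below, WT MDPs. The IkL/L minus WT difference was 0.81 in CDPs (adjusted p = 0.253) and 4.13 in MDPs (adjusted p = 0.00037), so that the stage difference was -3.32 ± 0.46 (SE, adjusted p = 0.00972). Read the other way, the CDP minus MDP difference of H2-Aa was 1.66 in IkL/L cells and 4.98 in WT cells, and both were called (adjusted p = 0.0129 and 0.000103). H2-Aa is printed above with its CCAAT letters.

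H2-Ab1, the β chain partner of H2-Aa, read 12.18 and 12.17 with GSI and 12.09 and 12.25 with DMSO in IkL/L CDPs, against 11.25 and 11.76 with GSI and 11.29 and 11.33 with DMSO in WT CDPs. In IkL/L MDPs H2-Ab1 read 10.24 and 10.61 with GSI and 10.17 and 10.91 with DMSO, against 5.55 and 6.90 with GSI and 6.75 and 6.79 with DMSO in WT MDPs. Its stage difference was -3.22 ± 0.37 (SE, adjusted p = 0.00323). Cd74, the invariant chain that escorts class II molecules, lay between 12.13 and 12.37 in IkL/L CDPs and 10.97 and 11.92 in WT CDPs, and between 9.93 and 10.95 in IkL/L MDPs and 6.37 and 7.73 in WT MDPs (-2.55 ± 0.43, adjusted p = 0.0289). H2-Eb1, another β chain, lay between 11.50 and 11.98 in IkL/L CDPs and 9.91 and 11.03 in WT CDPs, and between 8.50 and 9.67 in IkL/L MDPs and 5.04 and 5.65 in WT MDPs (-2.26 ± 0.42, adjusted p = 0.0484). All 4 genes kept the order of populations seen for H2-Aa, which 0.0802% of all genes showed. H2-Aa and H2-Ab1 stayed called whichever 1 array was left out, whereas Cd74 kept its call in 4 and H2-Eb1 in 3 of the 16 cases, and 2 of the 4 were called without WT CDP DMSO replicate 2, without WT MDP DMSO replicate 1 or without IkL/L MDP GSI replicate 1. With same-numbered arrays as a random unit 2 were called, while H2-Eb1 and Cd74 (adjusted p = 0.0714 for Cd74) were not. The IkL/L CDP values of these genes, 11.50 to 12.54, were near the highest signal on any array, 13.46, and the part of that upper end in the small CDP difference was not tested.

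**Figure D4:**
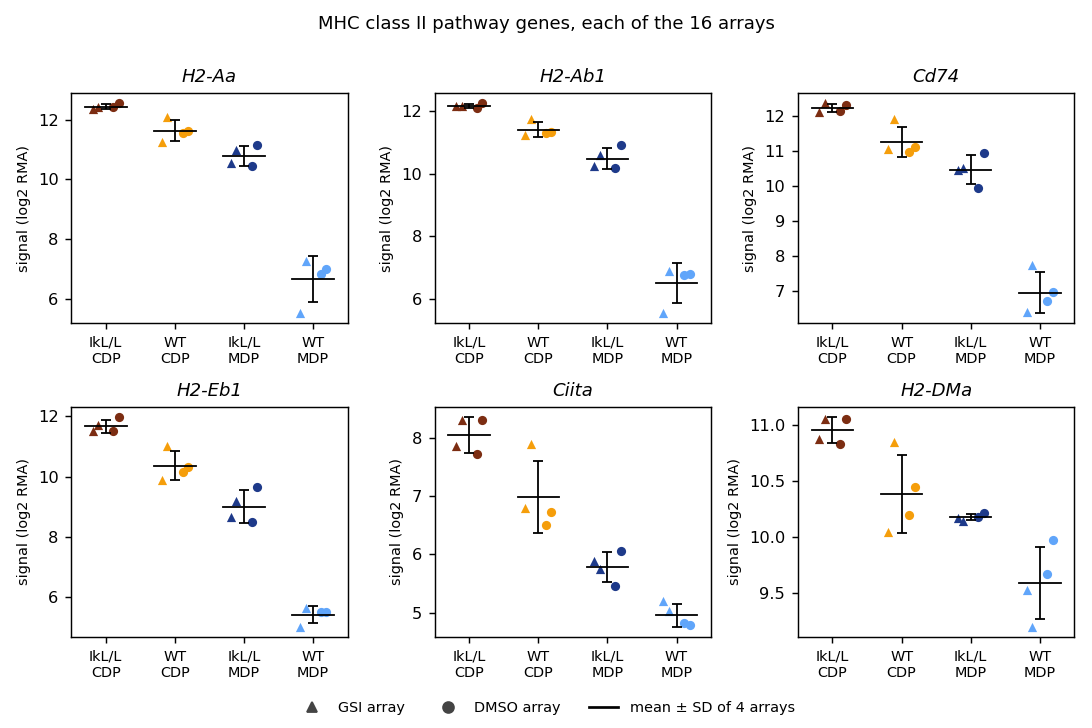
Signal (log2 RMA) of H2-Aa, H2-Ab1, Cd74, H2-Eb1, Ciita and H2-DMa on each of the 16 arrays, drawn as in the plot of Fscn1 and the other mature DC genes (triangles GSI, circles DMSO, mean ± SD of 4 arrays). For the first 4 genes the WT MDP arrays lie far below the other populations, at 5.53 to 7.26 for H2-Aa, while Ciita and H2-DMa show no such gap.

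The other 6 genes of the class II pathway were not called. Ciita, the master activator of class II transcription, read 7.87 and 8.32 with GSI and 7.73 and 8.32 with DMSO in IkL/L CDPs, against 6.80 and 7.91 with GSI and 6.51 and 6.74 with DMSO in WT CDPs. In MDPs Ciita lay between 5.46 and 6.05 in IkL/L cells and between 4.78 and 5.20 in WT cells. The IkL/L minus WT differences were of like size, 1.07 in CDPs (adjusted p = 0.0262) and 0.83 in MDPs (adjusted p = 0.246), and the stage difference was 0.24 (95% confidence interval -0.50 to 0.98). H2-DMa, which loads peptide onto class II molecules, gave -0.01 (95% confidence interval -0.51 to 0.48), and H2-Oa and H2-Ob, which restrain that loading, gave 0.19 and 0.18. Over the 10 measured genes of the pathway, 4 were called on the low side (0.160% of all genes) and 0 on the high side. One more gene, H2-Eb2, passed an unadjusted p under 0.05 on the high side (3.36% of all genes). The stage difference was positive in 5 of the 10 and negative in 5, with a median of 0.09.

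All 24 interferon-stimulated genes had a positive stage difference with a median of 0.81. Of these, 14 passed an unadjusted p under 0.05 (3.36% of all genes), but limma called 0 of the 24 (0.401% of all genes). The list member Gbp2 was not among the 24, because its probe set is shared with Gbp2b. That probe set was called in limma's test over all 28188 probe sets, at 2.67 (adjusted p = 0.00279). Oasl2, an antiviral gene of this list, read 8.98 and 7.87 with GSI and 8.97 and 8.56 with DMSO in IkL/L CDPs, against 6.11 and 6.51 with GSI and 7.35 and 7.23 with DMSO in WT CDPs, and 5.80 to 6.37 in IkL/L MDPs against 5.35 to 5.93 in WT MDPs (1.30 ± 0.31, adjusted p = 0.161). Outside the list, Herc6 and Ube2l6, which attach the interferon-induced modifier ISG15 in mice, were called at 1.25 and 1.63. Of 13 cDC1 genes, 20 pDC genes and 24 stem and progenitor genes, 0 were called in limma's test on either side. At an unadjusted p under 0.05, 0, 4 and 0 of them passed on the high side (3.36% of all genes). On the low side 0, 1 and 1 passed (3.07% of all genes). Of 19 cDC2 and pan-cDC genes 1 was called, on the high side (0.401% of all genes). This was Clec4a4, at 1.67 (adjusted p = 0.0409), which kept its call in 3 of the 16 cases with 1 array left out. Of 24 TGFβ receptors, ligands and SMADs 0 were called, and 1 passed an unadjusted p under 0.05 on the low side (3.07% of all genes). Of 21 Notch receptors, ligands and targets 1 was called, Il2ra, on the high side (0.401% of all genes), with its call kept in 5 of the 16 cases. On that side 2 of the 21 passed an unadjusted p under 0.05 (3.36% of all genes).

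Some genes of the neutrophil lineage rose at both stages. Ltf, the lactoferrin of secondary granules, read 10.82 and 9.28 with GSI and 11.00 and 10.20 with DMSO in IkL/L CDPs, against 5.75 to 6.52 in WT CDPs. In MDPs Ltf read 9.08 and 8.24 with GSI and 9.09 and 10.00 with DMSO in IkL/L cells, against 5.03 to 6.36 in WT cells. The genotype difference was thus 4.17 in CDPs (adjusted p = 0.000146) and 3.56 in MDPs (adjusted p = 0.00216), and the stage difference was 0.61 (95% confidence interval -0.58 to 1.81). Camp, a granule antimicrobial peptide, rose by 3.59 in CDPs and 3.86 in MDPs, with a stage difference of -0.27 (95% confidence interval -1.17 to 0.64). Of 24 late neutrophil genes, 18 were called higher in IkL/L CDPs (3.21% of all genes) and 7 in IkL/L MDPs (0.537% of all genes). For the stage difference 0 were called in limma's test. At an unadjusted p under 0.05, 6 passed, all on the high side (3.36% of all genes). The stage difference was positive in 20 of the 24, against 9548 of all 19938 genes, with a median of 0.46. It was larger for Ly6g (2.36, adjusted p = 0.327) and Mmp9 (2.28, adjusted p = 0.263) than for Ltf and Camp. The median signal of the 24 genes was 8.38 to 10.20 in IkL/L CDPs and 6.32 to 7.30 in WT CDPs, and 7.87 to 8.77 in IkL/L MDPs and 6.59 to 7.20 in WT MDPs, and its part in the other results was not tested. In all, 87 genes were called at both stages, 83 of them higher in IkL/L cells, and none in opposite directions. Eng, the TGFβ co-receptor endoglin, was among them, at 1.64 in CDPs and 1.16 in MDPs, with a stage difference of 0.48 (95% confidence interval -0.10 to 1.07).

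The stage difference was also computed within each treatment. The values of each version rest on 8 arrays of its own, but both were tested with the spread of all 16 arrays, so the calls are not independent. Fits on the 8 arrays of 1 treatment alone called 0 genes under GSI and 3 under DMSO in limma's test, with 837 and 651 at an unadjusted p under 0.05. In the fit of all arrays, 41 genes were called under GSI on the high side (0.206%) and 5 on the low side (0.0251%), and under DMSO 21 on the high side (0.105%) and 0 on the low side (0.00%), where 317 passed an unadjusted p under 0.05. Without WT CDP DMSO replicate 2 the DMSO version called 8 genes. All 46 genes called under GSI had the same sign under DMSO, where 43 passed an unadjusted p under 0.05 and 17 were called. All 21 called under DMSO had the same sign under GSI, where 20 passed an unadjusted p and 17 were called. The versions may still share mice: same-numbered GSI and DMSO arrays deviated together in 3 of the 4 populations (correlations of 0.66 in IkL/L CDPs, 0.59 in WT CDPs, -0.02 in IkL/L MDPs and 0.48 in WT MDPs). No gene was called for a difference between the GSI and the DMSO version (0.00%), the lowest adjusted p was 1.00, and 273 genes passed an unadjusted p under 0.05. Among the 112 genes the largest such difference was that of Ccl22, at 4.26 under GSI and 1.71 under DMSO (unadjusted p = 0.00156). Ppbp, a platelet chemokine, was at 1.04 under GSI and 2.54 under DMSO (unadjusted p = 0.0149).

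**Figure D5:**
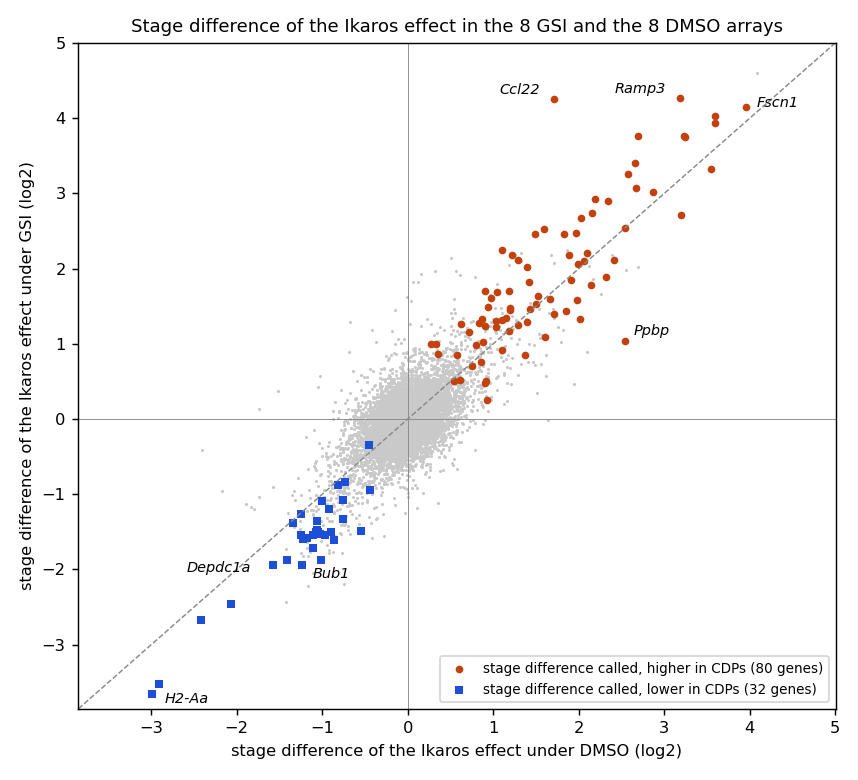
Each point is 1 of 19938 genes, placed by the stage difference of its IkL/L minus WT effect under DMSO (x axis, log2) and under GSI (y axis, log2), which share no array, with the dashed line marking equal values. The 80 genes called higher in CDPs are circles and the 32 called lower are squares, chosen on the average of both axes, and Ccl22 and Ppbp are the genes named in the text for the distance between their 2 values.

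At the edge of the call, Cdc20 was the last gene inside (-1.27, adjusted p = 0.0497) and Lif, a cytokine of the interleukin 6 family, the first outside (0.63, adjusted p = 0.0505).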

How the data were processed

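RNA from 16 sorted samples, 2 per group, was amplified with the NuGEN Ovation Pico WTA V2 kit and hybridised to Affymetrix Mouse Gene ST arrays. The deposited values are log2 signals that the authors computed by RMA (Affymetrix Expression Console 1.4.1), a method that subtracts background, normalizes between arrays by quantiles and summarizes probes. RMA gives no depth per array, so precision rests on the number of arrays. Of 28188 probe sets, 21789 carried 1 gene symbol, 1621 several and 4778 none in GEO's platform annotation. The probe set of highest mean signal stood for each of 19938 genes, and the 6399 probe sets without a single symbol were left out of the tests.

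A model of 8 group means was fitted with limma 3.58.1 in R 4.3.3 (lmFit, contrasts, eBayes), with 8 residual degrees of freedom, and every p-value below is a limma moderated test, two-sided, with Benjamini-Hochberg adjustment over all 19938 genes and a threshold of 0.05. The stage difference is the IkL/L minus WT difference in CDPs minus that in MDPs, averaged over GSI and DMSO. Genes to follow were set by a rule: the 15 called genes with the largest difference in each direction, the 5 largest for each treatment version, up to 4 called members of each gene list (otherwise the 2 with the lowest p), and the genes the study names. The text does not give all of them. Of the 21 genes the study names, 1 was called, Relb (0.401% of all genes), and only some of the others are given. Others were chosen after their values were seen. The members and gene lists were chosen with earlier results of these data known, and no list is independent evidence. The fit was tested on simulated data. Alternatives covered the filter on low signal, other probe set rules, renormalization, array weights, variance settings, a fold threshold, the replicate number as a block and leaving out each array. Treating same-numbered GSI and DMSO arrays as 1 unit was added after seeing the data, with statmod 1.5.0.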

Additional observations from a re-analysis of the deposited data

Results flagged for a closer look

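The IkL/L minus WT difference depended on stage by limma's test in 80 genes on the high side and 32 on the low side. The 15 largest on the high side were Fscn1 (4.05 on the log2 scale), Serpinb6b (3.81), Ccr7 (3.77), Ramp3 (3.72), Mmp25 (3.50), Rgs1 (3.50), H2-M2 (3.43), Timd4 (3.22), Mreg (3.03), Ccl22 (2.98), Clu (2.95), Ccl5 (2.94), Socs2 (2.92), Serpinb9 (2.87) and Cd83 (2.62). The 15 largest on the low side were the MHC class II genes H2-Aa (-3.32), H2-Ab1 (-3.22), Cd74 (-2.55) and H2-Eb1 (-2.26), and Depdc1a (-1.76), Cdc25c (-1.64), Bub1 (-1.59), Ect2 (-1.45), Cenpa (-1.42), Prr11 (-1.41), Cip2a (-1.40), Cdca3 (-1.38), Cenpp (-1.37), Nuf2 (-1.32) and Melk (-1.29). Groups of 2 arrays are too small for a check of single arrays against their group.

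Probe sets outside the report's comparison carried the same kind of difference. Among those with several gene symbols, 8 were called on the high side and 2 on the low side, and among those with no symbol, 7 and 4. Except for the probe sets of Gbp2 and of H2-K1 with H2-D1, they are left unnamed for lack of a single gene.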

How the results depend on the processing

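For the stage difference, 68 to 96 genes were called on the high side, 59 to 80 of them among the 80, and 27 to 44 on the low side, 25 to 32 of them among the 32, under the filter on low signal, the mean of a gene's probe sets, quantile normalization again, median centring, array weights, trended and robust variances and an additive treatment term. For 104 genes, those of the naming rule and some others, each alternative was followed. None that was called changed sign under any alternative. Of those not called, 13 had both signs among the fits with 1 array left out. In all, 248 values lost and 18 gained a call. The main limits are the 2 arrays per group and the unknown link of replicate numbers to mice. Among the MDP calls on the low side, the filter left 5, quantile normalization again gave 19 and an additive treatment term 23. A test against a 1.5-fold change left 32 and 2 genes for the stage difference, 115 and 25 for CDPs, 23 and 0 for MDPs, and 7 under DMSO and 8 under GSI. Fitting the arrays of 1 treatment alone gave 3 calls under DMSO and 0 under GSI, with 651 and 837 at an unadjusted p under 0.05.

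Averaging same-numbered GSI and DMSO arrays, chosen after seeing the data, left 0 and 0 genes for the stage difference in limma's test (471 and 380 at an unadjusted p under 0.05), 203 and 99 for CDPs, and 5 and 0 for MDPs (506 on the low side unadjusted). As a random unit, with a consensus correlation of 0.29, they gave 61 and 13 genes for the stage difference, 247 on the low side for CDPs, and 55 and 0 for MDPs (459 on the low side unadjusted). With the replicate block, limma called 101 and 63 genes for the stage difference, 580 on the low side for CDPs, 163 on the high side for MDPs and 76 under GSI. Replicate numbers were not shown to pair the samples across groups, so this block is not read as the better fit.

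Leaving out 1 array at a time gave 55 to 100 genes on the high side and 10 to 68 on the low side for the stage difference, and 51 and 9 genes were called in every case. The 10 came without IkL/L MDP GSI replicate 1 or without IkL/L MDP DMSO replicate 2, and the 68 without WT MDP GSI replicate 2. The ranges were 397 to 654 and 218 to 468 for CDPs, 35 to 226 and 0 to 58 for MDPs, 0 to 29 under DMSO, 6 to 94 under GSI and 0 to 2 for the GSI minus DMSO difference. The 0 under DMSO came without WT MDP DMSO replicate 1, with 644 genes at an unadjusted p under 0.05.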

Other observations

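Of the 87 genes called in IkL/L against WT cells at both stages, the CDP difference was the larger in 46. F11r, the junctional adhesion molecule JAM-A, was 2.61 higher in IkL/L CDPs and 1.98 higher in IkL/L MDPs than in WT cells, with a stage difference of 0.63 (limma, adjusted p = 0.219). All 11 MHC class I processing genes had a positive stage difference with a median of 0.32. Of them limma called 0 (0.401% of all genes), with 4 at an unadjusted p under 0.05 (3.36% of all genes). The list members H2-K1 and H2-D1 were not among the 11, because they share a probe set. That probe set was called in limma's test over all 28188 probe sets, at 0.35 (adjusted p = 0.0286). Of 20 inflammatory and platelet chemokines, 4 were called on the high side (0.401% of all genes): Ccl22, Ccl5, Cxcl3 and Ppbp.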
